A study of Mus musculus with 20 samples.

Results

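The 9 genes examined here encode proteins that store and release glycogen in the liver. They were chosen by gene symbol as glycogen-targeting subunits of protein phosphatase 1 (PP1; Ppp1r3b, Ppp1r3c, Ppp1r3d and Ppp1r3g), enzymes of synthesis (Gys2, Gbe1 and Ugp2) and enzymes of breakdown (Pygl and Phka2). All 9 were listed in both RNA-seq tables, among 56884 genes in males and 18149 genes in females. The gene-trap allele was made in C57BL/6J embryos. The mice were aged 11 to 14 weeks, and for either sex the livers of 3 WT and 3 Midn-T animals were used for RNA-seq and of 2 and 2 for ATAC-seq. The Midn-T mice carried the XTR gene trap in Midn, which encodes the proteasome-binding protein midnolin, switched to its trapped state by Albumin-Cre, a recombinase driven by a promoter active in hepatocytes. The labels give the genotype as Midn XTR for the WT samples and as Midn TR for the Midn-T samples. Whether the WT mice carried Albumin-Cre is not given in the sources used here. The tissue also holds other liver cells.

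Glycogen is the branched glucose polymer from which the liver supplies blood glucose between meals. Glycogen synthase lengthens its chains from UDP-glucose, the branching enzyme adds side chains, and glycogen phosphorylase removes glucose units, which leave the chain as glucose 1-phosphate. Phosphorylation switches phosphorylase on and the synthase off, and the PP1 targeting subunits reverse this by holding the phosphatase on the glycogen particle.

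The value read for each gene was the authors' mean normalized count over the 6 livers of one sex, with both genotypes averaged together. No value for a single liver and no value for one genotype was used here, so no spread, interval or test accompanies the levels and the depth of each library is unknown. The effect of the Midn-T allele on these genes was therefore not analysed here. Over all listed genes the male means add up to 3.03e+07 and the female means to 3.08e+07. Midn itself had means of 1672.2 and 1357.1, which do not separate the genotypes and so do not check the labels. The hepatocyte markers Alb, Ttr, Apoa1, Cyp2e1 and Cps1 had means of at least 78780.6 in either sex, while the skeletal muscle genes Acta1 and Myh4 were listed at 0 in males and Ckm at 0.131. None of these muscle genes was listed in females, where the lowest listed mean is 6.61. Mylpf, the remaining muscle gene, had means of 12.2 in males and 18.0 in females. The 5 Kupffer and other immune markers had means from 240.5 to 2853.0, so transcripts of other liver cells were present in the tissue.

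Gys2 (ENSMUSG00000030244, chromosome 6, 142368339 to 142418841 of GRCm39, minus strand) encodes the liver glycogen synthase. Its mean normalized count was 9162.2 in males and 7243.5 in females. Divided by the union length of its annotated exons, 2663 nt, this gave 3441 normalized counts per kilobase in males and 2720 in females. Per kilobase of union length, though not of the longest or canonical transcript, it had the highest mean of the 9 genes in both sexes, in females by 1.04-fold over the next, and stood above 98.95% of the other protein-coding genes listed in males and 97.93% in females. Gys1, the synthase of muscle and most other tissues, had 16.0 per kilobase in males and 15.4 in females. The liver gene thus stood 215-fold above Gys1 in males and 177-fold in females, or 102-fold and 83.7-fold with canonical transcript lengths. Gyg1, which encodes the glycogenin that primes new chains, had 58.2 per kilobase in males and 65.3 in females.

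Ugp2 (ENSMUSG00000001891, chromosome 11, 21270384 to 21321276, minus strand) encodes the pyrophosphorylase that makes UDP-glucose. Its mean normalized count was 12231 in males and 13059 in females, or 2451 and 2616 per kilobase. Its exons share 950 nt with exons of Vps54 on the opposite strand, which the strand-specific counting keeps apart. Pgm1, the phosphoglucomutase one step earlier in the pathway, had 1522 per kilobase in males and 1397 in females, below Ugp2 in both. Gbe1 (ENSMUSG00000022707, chromosome 16, 70110715 to 70366609, plus strand) encodes the branching enzyme. Its mean normalized count was 4436 in males and 4506 in females, and its level of 804 and 817 per kilobase was the lowest of the 3 synthesis genes.

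Pygl (ENSMUSG00000021069, chromosome 12, 70237585 to 70278262, minus strand) encodes the liver glycogen phosphorylase. It had the highest mean normalized count of the 9 genes, 14195 in males and 16415 in females. Per kilobase of union exon length its level was 2025 in males and 2342 in females. The brain and muscle phosphorylases were far lower, with Pygl 84.7-fold above Pygb and 184-fold above Pygm in males, and 91.7-fold and 166-fold above them in females. With canonical transcript lengths the gap to Pygm was 343-fold in males and 308-fold in females.

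Phka2 (ENSMUSG00000031295, chromosome X, 159285131 to 159381876, plus strand) encodes the liver form of the regulatory alpha subunit of phosphorylase kinase, the enzyme that activates phosphorylase. Its mean normalized count was 1244.5 in males and 1525.4 in females, or 153 and 188 per kilobase. The liver and muscle forms lay closer together here than those of the synthase and phosphorylase. Phka1, the muscle form, had 43.9 per kilobase in males and 39.6 in females, a 3.49-fold and 4.74-fold gap to Phka2. Of the other subunits, Phkb had 117 and 118 per kilobase in males and females and the catalytic Phkg2 143 and 121. Phka2 stood 1.31-fold above Phkb in males and 1.59-fold in females, or 1.88-fold and 2.27-fold with canonical transcript lengths. Phkg1, the muscle catalytic subunit, had a mean normalized count of 5.10 in males and was not listed in females, where no mean below 6.61 is listed.

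The 4 PP1 targeting subunits covered a wide range. Ppp1r3b (ENSMUSG00000046794, chromosome 8, 35842874 to 35856680, plus strand), also known as the liver subunit GL, had a mean normalized count of 8018.8 in males and 8310.5 in females. Ppp1r3c (ENSMUSG00000067279, chromosome 19, 36708523 to 36714070, minus strand), which encodes the subunit PTG, had 854.1 in males and 1183.7 in females. Ppp1r3g (ENSMUSG00000050423, chromosome 13, 36142822 to 36154371, plus strand), whose product is known for its regulation by feeding and fasting in liver, had 448.9 in males and 403.1 in females. The fourth, Ppp1r3d (ENSMUSG00000049999, chromosome 2, 178052999 to 178056265, minus strand), was close to the floor of the female table, whose lowest mean is 6.61. Its mean normalized count was 11.3 in males and 11.2 in females, and its single annotated transcript has 1 exon.

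**Figure D1:**
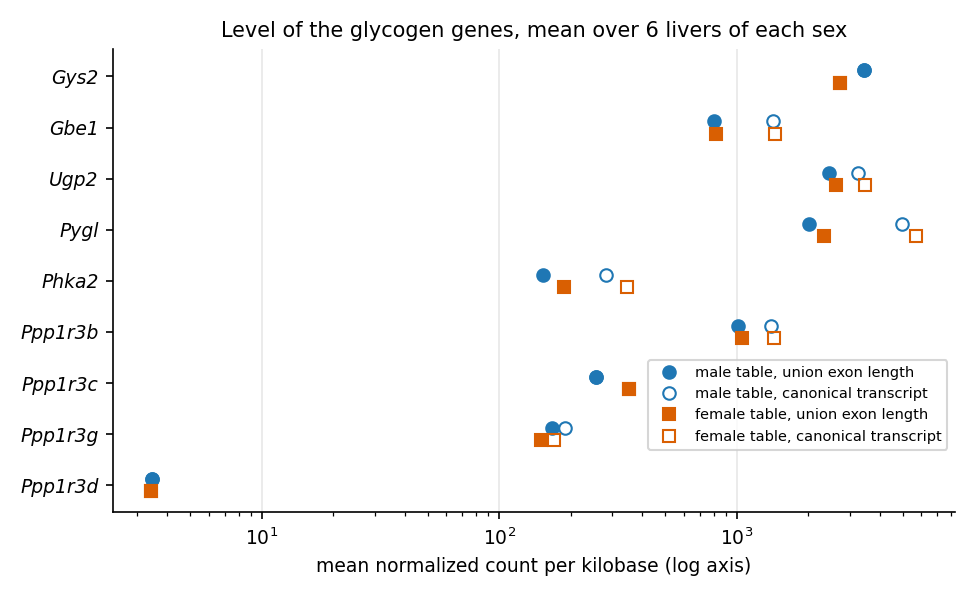
Mean normalized count per kilobase of each glycogen gene on a log axis, over 6 male livers (circles) and 6 female livers (squares) of both genotypes, with filled symbols for the union exon length and open symbols for the canonical transcript, which coincide where both lengths are equal. The genes run from about 3.4 for Ppp1r3d to 3441 for Gys2 with the union length, and Pygl moves to the top with the canonical transcript.

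Per kilobase, Ppp1r3b had 1013 in males and 1050 in females, Ppp1r3c 255 and 353, Ppp1r3g 167 and 150, and Ppp1r3d 3.46 and 3.44. Ppp1r3b therefore held 70.5% of the summed level of the 4 subunits in males and 67.5% in females. The share of Ppp1r3c was 17.7% in males and 22.7% in females, and that of Ppp1r3g was 11.6% and 9.61%. Ppp1r3d held 0.24% and 0.22%. With canonical transcript lengths Ppp1r3b held 75.6% in males and 73.2% in females. Ppp1r3c then held 13.86% and 17.95%, and Ppp1r3g 10.3% and 8.67%. The family has further members that were not among the 9 genes. Ppp1r3e, another subunit known in liver, had 90.0 per kilobase in males and 66.2 in females, below Ppp1r3g in both. Ppp1r3f, at 3.49 and 3.99, was near Ppp1r3d. The muscle subunit Ppp1r3a had a mean normalized count of 2.20 in males and was not listed in females, where no mean below 6.61 is listed. Of the catalytic subunits of PP1 that these proteins bind, Ppp1ca had 921 and 1110 per kilobase, Ppp1cb 366 and 365, and Ppp1cc 281 and 288. The 4 subunits also differ in size, with annotated proteins of 284 residues for Ppp1r3b, 317 for Ppp1r3c, 279 for Ppp1r3d and 347 for Ppp1r3g.

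**Figure D2:**
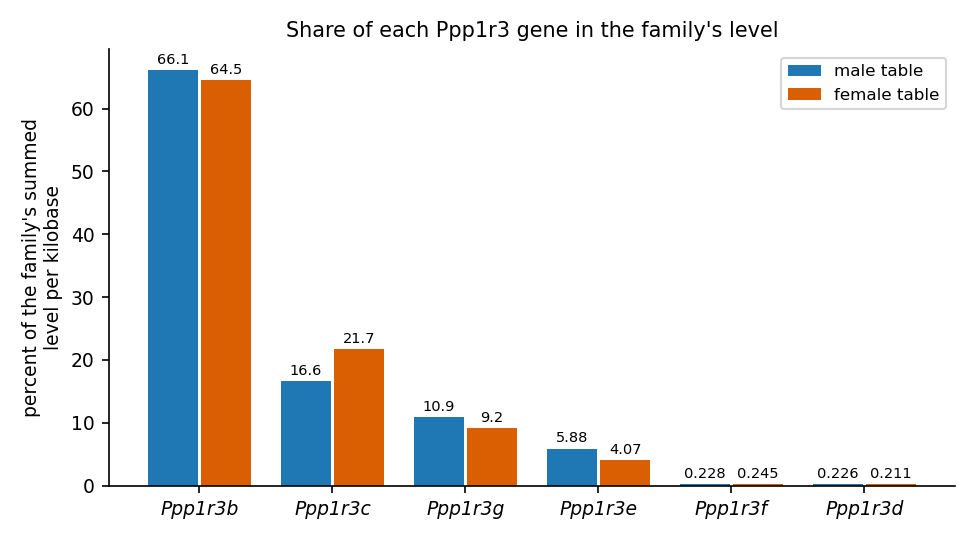
Share of each Ppp1r3 gene in the summed level per kilobase of the family (union exon length), as bars from 0 for the male and female tables, with Ppp1r3a left out of the plot at 0.0169% in males. Ppp1r3b holds 66.1% in males and 64.5% in females, and the shares of Ppp1r3f and Ppp1r3d stay under 0.25%.

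Ordered per kilobase of union length, the male levels ran Gys2, Ugp2, Pygl, Ppp1r3b, Gbe1, Ppp1r3c, Ppp1r3g, Phka2 and Ppp1r3d. The female order differed only in that Phka2 stood above Ppp1r3g. The 3 highest genes lay close together in females, where Gys2 was 1.04-fold above Ugp2 and Ugp2 1.12-fold above Pygl. With no spread between livers, neighbours this near cannot be ranked. The ranking of Pygl rests on the length used, because its 14 annotated transcripts give a union of 7008 nt against 2869 nt for the canonical transcript. Per kilobase of canonical transcript, Pygl came first, with 4948 in males and 5721 in females. Phka2 stood above Ppp1r3g in both sexes with the longest or the canonical transcript. With the canonical transcript, Gbe1 stood above Ppp1r3b, by 1.025-fold in males and 1.005-fold in females. Phka2 then also stood above Ppp1r3c in males, by 1.105-fold. Ppp1r3d came last with each of the 3 lengths.

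**Figure D3:**
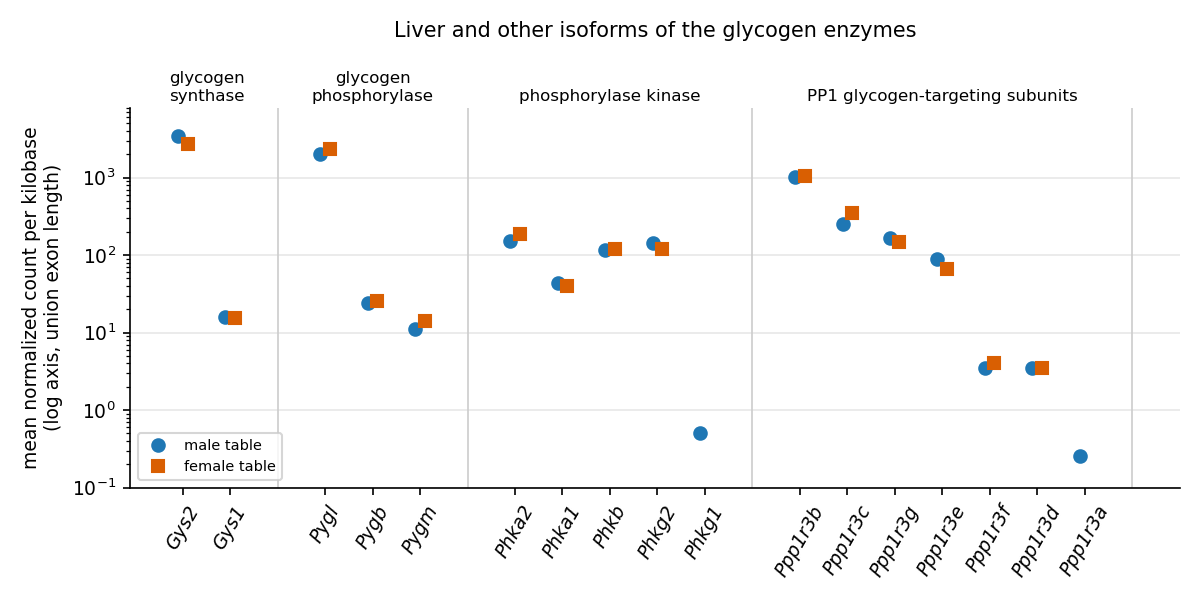
Mean normalized count per kilobase of union exon length on a log axis for liver and other isoforms of 4 groups of proteins, with circles for the male and squares for the female table. Gys2 and Pygl lie far above their muscle and brain counterparts, Phka2 lies 3.49-fold and 4.74-fold above Phka1, and the Ppp1r3 genes descend from Ppp1r3b to Ppp1r3a, with Phkg1 and Ppp1r3a shown for males only.

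The levels of the 2 sexes were next set side by side. The tables were normalized separately and share no library, so sex, table and processing cannot be told apart, and each ratio mixes WT with Midn-T livers. Nor can fewer cells of a type be told apart from less RNA per cell in such tissue samples. The study's methods give neither the feeding state nor the time of day at collection, so their part in the ratios was not tested. Of the 9 genes, 6 had a higher and 3 a lower mean in females on the deposited scale. The counts became 5 and 4 with the tables scaled to equal sums. They became 4 and 5 with the female table divided by the median ratio over shared genes. With the median ratio over genes of mean at least 100 in both tables they stayed 6 and 3. The median log2 ratio of female over male was 0.05, against 0.07 for all 18132 genes above 0 in both tables. None of the 9 genes differed by 1.5-fold or more. Over all genes, 12.3% were at least 1.5-fold higher and 3.73% at least 1.5-fold lower in females. Genes were listed in females only from a mean of 6.61 but in males down to 0. Genes low only in females are therefore missing from the median and the shares over all genes. Among the 10793 genes with a mean of at least 100 in both tables, as 8 of the 9 have, the shares were 4.53% and 2.85%. A count of 0 among 9 genes does not set them apart. No ratio was tested.

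Ppp1r3c had the highest ratio of the 9 genes, 1.39 female over male, and 92.7% of those 10793 genes had a lower one. Phka2 followed with 1.23 and Pygl with 1.16. Gys2 had the lowest ratio, 0.79, which was above that of 8.48% of those genes. Ppp1r3g had 0.90. The remaining ratios were near 1, at 1.07 for Ugp2, 1.04 for Ppp1r3b, 1.02 for Gbe1 and 0.99 for Ppp1r3d. The stellate cell markers Dcn, Lrat, Reln and Col1a1, 4 of 4, were also higher in females, by 1.25-fold to 1.42-fold, with sums of 8985 in males and 11740 in females. Of the other marker lists, 4 of 5 Kupffer and other immune markers were higher in females on the deposited scale (ratios of 0.95 to 1.15). It was 3 of 5 with equal sums or the median over genes of mean at least 100, and 1 of 5 with the median over all shared genes. Higher in females on each of these scales were 3 of 4 sinusoidal endothelial (0.74 to 1.21), 3 of 4 cholangiocyte (0.85 to 1.93) and 2 of 5 hepatocyte markers (0.73 to 1.35). The 3 cholangiocyte markers higher in females, Krt19, Krt7 and Epcam, had low means of at most 55.55. Sox9, the remaining one, had 245.3 in males and 209.5 in females. The cholangiocyte sums were 325.8 in males and 337.4 in females. The muscle gene Mylpf had means of 12.2 and 18.0. The part of these cell types in the ratio of Ppp1r3c or any other gene was not tested.

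**Figure D4:**
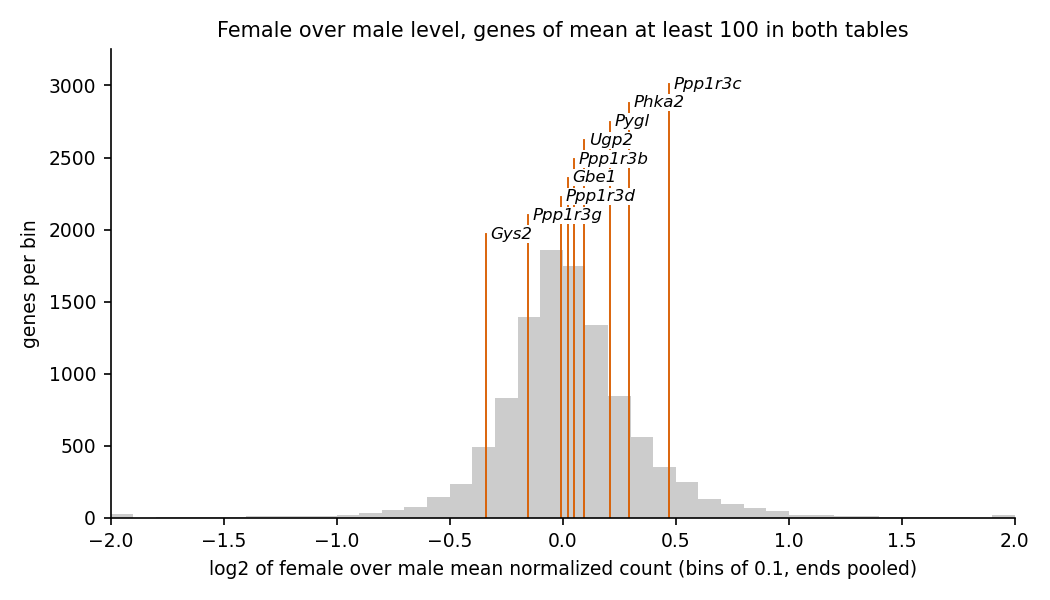
Distribution of the log2 ratio of female over male mean normalized count for the 10793 genes with a mean of at least 100 in both tables (grey bars, genes per bin of 0.1), with a line for each glycogen gene, Ppp1r3d included although its mean is below 100. The height of a line only makes room for its name. The lines run from -0.34 for Gys2 to 0.47 for Ppp1r3c, inside the range between the 5th and 95th percentile of the distribution, -0.45 and 0.56.

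Ratios between 2 genes of the same table depend on neither the scale of that table nor, when compared between sexes, the gene length. The proportion of Gys2 to Pygl in females was 0.68 of that in males. For Ppp1r3c to Ppp1r3g the female proportion was 1.54 times the male one, and for Phka2 to Phka1 it was 1.36 times. Ppp1r3b and Ppp1r3g were closer, the female proportion being 1.15 times the male one. These pairs were chosen after the values were seen and are a description of the 2 tables.

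The wider pathway was read from a list of 27 further genes, of which 25 were listed in both sexes. Of these 25, 12 had a higher and 13 a lower mean in females, with a median log2 ratio of -0.002. The counts were 11 and 14 with equal sums and 10 and 15 with the median over all shared genes. With the median over genes of mean at least 100 they stayed 12 and 13. Past 1.5-fold were 1 and 2 of the 25, beside the 12.3% and 3.73% of all genes. Among genes with a mean of at least 100 in both tables, which not all of the 25 reach, the shares were 4.53% and 2.85%. The gene at least 1.5-fold higher in females was Nhlrc1, which encodes the ubiquitin ligase malin, at a mean normalized count of 21.0 in males and 33.9 in females. At least 1.5-fold lower were 2 genes, among them Stbd1. This gene, which encodes a starch-binding protein that tethers glycogen to membranes, had means of 3070 and 1853, a ratio of 0.60. The genes for the release of glucose from the cell had ratios of 0.87 for G6pc1, 0.92 for Slc37a4 and 1.05 for Slc2a2. Epm2a, which encodes the glycogen phosphatase laforin, had 1.25, and the lysosomal glucosidase gene Gaa 0.93. Gsk3a and Gsk3b, kinases that inhibit glycogen synthase, had 0.84 and 0.90. Pgm2, at 19.2 per kilobase in males and 24.2 in females, was far below Pgm1.

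The ATAC-seq lists hold 179 positions of 500 bp in males, selected by the authors at an unadjusted threshold, and 217 in females, selected at a false discovery rate. The lists hold no measurement, and their directions were not used here. Distances were taken from the midpoint of a position to the nearest annotated start site. Of the 9 genes, 1 had a listed position within 100 kb of a start site in males and 0 in females. This compares with 3.82% and 1.86% of 13614 protein-coding genes with a listed position that near. The male position nearest to this gene, Gys2, is chr6:142291253-142291752, 77.8 kb from a start site. Its midpoint is inside Pyroxd1, 98 bp from an annotated start site of that gene, so it overlaps the start of another gene, which was looked up after the position was seen. The position nearest to Ppp1r3b was 157 kb away in the male list and 450 kb away in the female list. The midpoints of both lie inside other annotated genes, though no other protein-coding start site was nearer to the male position. For Ppp1r3g the nearest position lay 4724 kb away in the male and 1764 kb away in the female list. For Pygl it lay 544 kb away in the female list, and for all remaining genes and lists it was at least 1696.5 kb away. No listed position lay within 10 kb of a start site of any of the 9 genes.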

How the data were processed

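RNA-seq covered 6 livers of either sex and ATAC-seq 4, grouped by library name and characteristics, since some ATAC-seq titles contradict them. Per the study's methods and the submitters' processing notes, rRNA-depleted paired-end reads were aligned to GRCm39 with STAR 2.7 and counted per Ensembl gene by HTSeq with the reverse-strand setting. The deposited tables come from DESeq2, and the signal column used here is the authors' mean of size-factor normalized counts over the 6 samples of one sex. The remaining numeric columns hold the authors' own comparison of Midn-T with WT (log2 fold changes, their standard errors, Wald statistics and p-values) and were not used, so no differential test was run here. For ATAC-seq the authors merged MACS2 peaks into 500 bp windows, counted them with featureCounts and compared them with edgeR, and only the positions of the deposited lists were used, not the directions.

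Genes were joined by Ensembl identifier, because 62 carry different symbols in the tables. GENCODE M39 on GRCm39, a later annotation of the same build, gave positions, start sites and exon lengths of all 9 genes, none of which shares exonic bases with another gene on its own strand. Levels per kilobase divide the mean by the union length of annotated exons. The authors counted reads with Ensembl release 110, so exons annotated only in M39 would add length but no counts. Such exons would lower the levels per kilobase, and how many there are was not examined. The functions for union length, percentile and nearest distance were tested on simulated data with known answers. Python 3.11.15, numpy 2.4.6, pandas 2.3.3 and matplotlib 3.10.9 were used. The 9 genes and the pathway and marker lists were chosen with earlier results of these data known. A separate rule set which genes to name in the text. It took the 9 genes, Midn and pathway-list genes that share a family with one of the 9 or stand next to it in the pathway. Other pathway genes, the overlapping Vps54 and Pyroxd1, and the 1.5-fold threshold were chosen after the values were seen. Alternatives were other transcript lengths, table scalings, filters on low means and distance windows. A planned comparison of protein sequences was not run, and the values of some pathway genes are not reported here.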

Additional observations from a re-analysis of the deposited data

How the results depend on the processing

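Because no spread is known, a value was taken as moved when it changed by more than 10%. All 9 ratios of female over male, and the counts of 0 genes at least 1.5-fold apart, kept within this limit, though not always their side of 1, when the tables were scaled to equal sums or by the median ratio of all shared genes or of well-measured genes, the last added after the data were seen. Ppp1r3b changed from 1.04 to 0.985 and Gbe1 from 1.02 to 0.965 with the median over all shared genes, and Gbe1 to 0.999 with equal sums. Among genes with a mean of at least 100 in both tables, the shares at least 1.5-fold higher and lower in females were 4.53% and 2.85%. With a window of 10 kb, 0 of the 9 genes had a listed position near a start site in males, against 1 with 100 kb. Lengths changed the order of some genes. Gys2 to Pygl per kilobase was 1.70 in males and 1.16 in females with union lengths, but 0.764 and 0.522 with the longest transcript and 0.695 and 0.475 with the canonical transcript, which was added after the data were seen. Phka2 to Phkg2 changed from 1.07 to 0.651 with the longest and 0.871 with the canonical transcript in males, and from 1.55 to 0.944 with the longest in females. Ugp2 to Gys2 in females changed from 0.96 to 1.27 with either. The male table lists unexpressed genes, so percentiles depend on the filter: Ppp1r3g stood above 81.7% of protein-coding genes in males and 69.1% in females, but 69.7% and 68.2% of those with a mean of at least 10. With this filter Ppp1r3d changed from 41.8% to 4.88% in males and from 6.67% to 4.67% in females. Leaving out single livers was not possible with averaged values.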
